A study of Homo sapiens with 5 samples.

Results

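Ribosome biogenesis factors are the nucleolar proteins, RNA polymerase I components and rRNA processing factors that build ribosomes. A set of 48 such genes was chosen by gene name, and all 48 were among the 10626 genes of the deposited table. RNA sequencing measured their transcripts in METAP1 knockout HAP1 cells (2 libraries) and in parental wild type HAP1 cells (3 libraries). HAP1 is a near-haploid human line derived from a chronic myeloid leukaemia, and METAP1 encodes methionine aminopeptidase 1, which removes the first methionine from many newly made proteins. The knockout line was made with CRISPR/Cas9 and carries an insertion of 179 bp in exon 4, for which the labels name both METAP1 and METAP1D; METAP1 is taken here as the edited gene. It was 1 edited line from the same supplier as its parent, so genotype and clone cannot be told apart. Both lines grew in the same medium with serum, penicillin and streptomycin, and no further treatment is named. Ribosomal RNA was depleted before sequencing and so was not measured. The titles speak of biological replicates and say nothing of separate cultures, so p-values measure the spread between these libraries, which may be technical.

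Ribosomes are assembled in the nucleolus. RNA polymerase I, helped by the DNA-binding factor UBTF, transcribes a long precursor rRNA, which small nucleolar ribonucleoproteins (snoRNPs) modify and a large early particle, the small-subunit processome, folds and cleaves. Other factors then mature the small (40S) and the large (60S) subunit, and the transcription factor MYC is a known activator of many of these genes.

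The table held 12570051 and 13061232 reads for knockout libraries 2 and 3, numbered as in the table, against 13111303, 16519292 and 14722649 for wild type replicates 1, 2 and 3. A member had between 193 and 23431 reads in a library. METAP1 had 611 and 748 normalized counts in the knockout libraries, against 1868, 1932 and 1944 in the wild type libraries, where a normalized count is the read count divided by the library's relative effective size. Of 12 haematopoietic markers, KIT and GATA2 were analysed, and PTPRC and CD34 were not among the analysed genes. KIT was higher, with 387 and 364 normalized counts in knockout libraries, against 258, 255 and 253 in wild type libraries (log2 fold change 0.56, SE 0.120, edgeR adjusted p = 0.0103), but not without wild type replicate 3 or either knockout library. GATA2 was not called, with 415 and 320 normalized counts in knockout libraries, against 492, 500 and 404 in wild type libraries (log2 fold change -0.34, SE 0.160, edgeR adjusted p = 0.137). Some markers of other cell types were higher in the knockout: 2 of 3 analysed epithelial and 3 of 5 analysed mesenchymal genes, beside 14.9% of all tested genes. These were KRT8, KRT18, CDH2, FN1 and S100A4, and KRT18 lost its call without wild type replicate 3 or either knockout library. EPCAM, VIM and TWIST1, with log2 fold changes of 0.14, 0.083 and 0.44, were not called. Summed normalized counts of the epithelial genes were 1708 and 1875 in the knockout libraries, against 715, 836 and 809 in the wild type libraries, with KRT8 at 921 and 967 normalized counts in knockout libraries, against 116, 164 and 146 in wild type libraries. Those of the mesenchymal genes were 10326 and 10957 in the knockout libraries, against 7898, 8912 and 8254 in the wild type libraries. VIM made up most of these, with 6026 and 6511 in knockout libraries, against 5471, 6565 and 5716 in wild type libraries. The part of these markers in the results was not tested.

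Promoter windows of 4 members are shown because they set the core binding motif of MYC beside the fold changes described further on. Each runs from 250 bases before to 50 bases after the RefSeq start (GRCh38.p14) and is printed 5′ to 3′ on the gene's own strand, with the E-box core CACGTG in capitals. The motif is its own reverse complement, so 1 search covers both strands. PES1 (chr22:30591861-30592160, minus strand) and UTP20 (chr12:101279855-101280154, plus strand) were lower in the knockout and hold the motif. NOL6 (chr9:33473875-33474174, minus strand) holds it and was not called. UBTF (chr17:44220833-44221132, minus strand) had the most negative fold change and does not hold these letters in this window.
PES1: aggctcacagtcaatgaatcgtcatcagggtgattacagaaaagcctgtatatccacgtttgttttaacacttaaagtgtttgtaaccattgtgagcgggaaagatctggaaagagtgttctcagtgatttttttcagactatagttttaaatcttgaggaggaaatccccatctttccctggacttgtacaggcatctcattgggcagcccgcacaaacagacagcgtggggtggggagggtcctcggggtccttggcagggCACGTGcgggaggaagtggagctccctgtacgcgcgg
UTP20: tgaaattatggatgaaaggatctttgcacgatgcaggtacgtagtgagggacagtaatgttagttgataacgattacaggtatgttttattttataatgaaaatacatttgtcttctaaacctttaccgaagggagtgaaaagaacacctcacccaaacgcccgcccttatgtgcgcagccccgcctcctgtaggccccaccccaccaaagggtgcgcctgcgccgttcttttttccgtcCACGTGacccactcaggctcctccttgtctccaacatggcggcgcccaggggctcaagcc
NOL6: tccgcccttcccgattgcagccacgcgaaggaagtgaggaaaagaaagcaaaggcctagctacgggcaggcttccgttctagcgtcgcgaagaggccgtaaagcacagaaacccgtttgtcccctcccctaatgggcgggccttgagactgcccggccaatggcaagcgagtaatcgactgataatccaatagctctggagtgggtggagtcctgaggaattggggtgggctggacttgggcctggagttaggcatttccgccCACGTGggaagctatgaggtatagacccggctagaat
UBTF: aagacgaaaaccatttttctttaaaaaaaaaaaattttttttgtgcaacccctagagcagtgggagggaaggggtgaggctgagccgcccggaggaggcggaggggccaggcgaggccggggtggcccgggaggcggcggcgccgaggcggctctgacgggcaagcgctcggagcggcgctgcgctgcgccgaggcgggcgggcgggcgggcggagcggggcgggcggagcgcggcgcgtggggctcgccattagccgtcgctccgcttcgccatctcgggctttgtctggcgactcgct

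A subset of the factors had lower transcript levels in the knockout, and no member was called higher. Of the 48 members, 15 were lower (31.2%) and 0 higher at an adjusted p under 0.05 by the edgeR quasi-likelihood test (Benjamini-Hochberg adjustment over 10620 genes). Over all tested genes, 14.8% were lower and 14.9% higher. No member was higher at an unadjusted p under 0.05 in edgeR, and DESeq2 and limma-voom each called 0 members higher. Fewer cells of a type and less RNA per cell cannot be told apart in bulk libraries. The median log2 fold change was -0.19 over the members and 0.0062 over all tested genes. A negative fold change, called or not, was found for 42 of the 48 members, against 49.4% of all tested genes. Both knockout libraries lay below all 3 wild type libraries in 30 of the 48 members, against 29.2% of all tested genes. Both lay above in 0 of the 48 members, against 30.1% of all tested genes. For called members such separation is not separate support, because the calls used the same libraries. By the adjusted p of the authors' deposited table, 15 members were lower and 0 higher, where 15.8% of the tested genes were lower and 15.8% higher.

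The summed normalized counts of the 48 members were 116351 and 120906 in the knockout libraries, against 145680, 141931 and 143541 in the wild type libraries. Per kilobase of gene length, NPM1 had the highest mean normalized count of the members in wild type cells, at 3703 in knockout and 5380 in wild type cells. NCL followed with 2318 in knockout and 3502 in wild type cells. The lowest per kilobase was BOP1, with 60.1 in knockout and 80.2 in wild type cells.

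The number of lower members depended on single libraries. It was 5 without knockout library 2 (5.31% of all genes lower and 5.79% higher) and 8 without knockout library 3 (5.85% lower and 6.6% higher). In these fits the lone knockout library is assumed to vary like the wild type ones. It was 10 without wild type replicate 3 (7.74% lower and 7.94% higher), 13 without replicate 2 (13.4% lower and 13.6% higher) and 22 without replicate 1 (21.5% lower and 21.8% higher). UBTF, PES1, NOP56 and UTP20 were the 4 members called lower whichever of the 5 libraries was left out. In GENCODE release 29 (GRCh38) these genes lie at chr17:44205033-44221626 (UBTF, minus strand), chr22:30576625-30607083 (PES1, minus strand), chr20:2652145-2658393 (NOP56, plus strand) and chr12:101280109-101386616 (UTP20, plus strand). Without wild type replicate 1, 8 further members were called, namely MYC as higher and FBL, DKC1, NOL11, RRP9, BOP1, WDR12 and BRIX1 as lower.

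**Figure D1:**
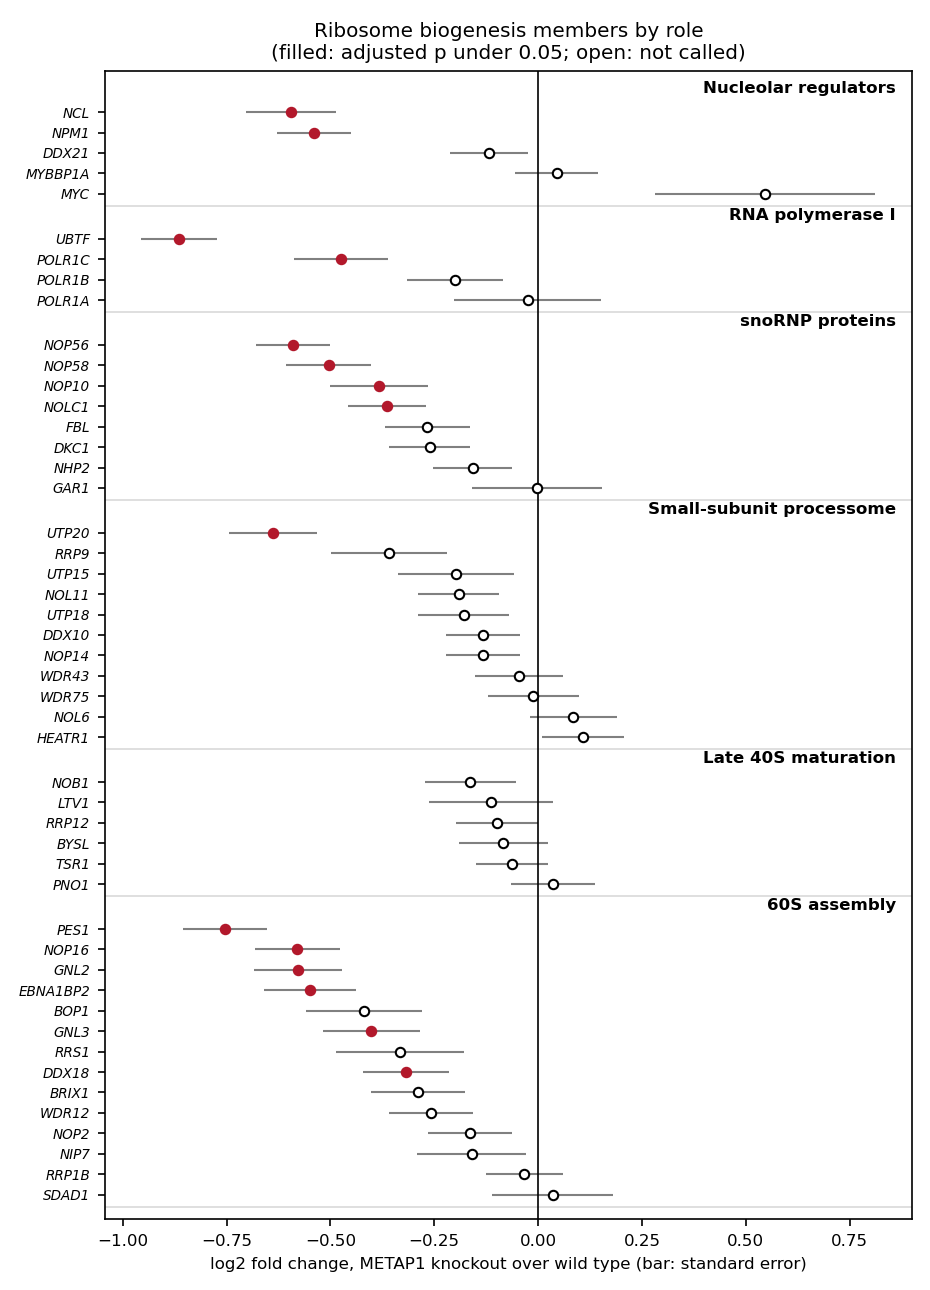
Log2 fold change of METAP1 knockout over wild type (x axis, bars are standard errors of the edgeR fit) for the 48 members, by role; filled points are the 15 called lower, open points the 33 not called. UBTF at -0.86 and PES1 at -0.75 lie farthest left, and all 6 late 40S factors are open.

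In the RNA polymerase I group UBTF and POLR1C fell, whereas POLR1A and POLR1B did not pass the test. UBTF (ENSG00000108312), the upstream binding factor of rRNA genes, had 1252 and 1240 normalized counts in the knockout libraries, against 2350, 2206 and 2248 in the wild type libraries (log2 fold change -0.86, SE 0.0911, edgeR adjusted p = 0.000432). Its knockout libraries differed little from each other and stood at 0.550 times the wild type level. POLR1C, a subunit shared by RNA polymerases I and III, had 405 and 403 normalized counts in knockout libraries, against 535, 580 and 568 in wild type libraries (log2 fold change -0.47, SE 0.114, edgeR adjusted p = 0.0159). The groups did not overlap, and significance was lost without wild type replicate 3 or either knockout library.

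POLR1A, the largest subunit of the enzyme, had 2294 and 2549 normalized counts in knockout libraries, against 3029, 1936 and 2431 in wild type libraries (log2 fold change -0.025, SE 0.176, edgeR adjusted p = 0.926). Both knockout values lay inside the wild type range. With each library's trend over gene length removed, the log2 fold change of POLR1A was -0.30 (edgeR adjusted p = 0.0564). POLR1B, the other large subunit, had 1847 and 1512 normalized counts in knockout libraries, against 1797, 1963 and 2029 in wild type libraries (log2 fold change -0.20, SE 0.115, edgeR adjusted p = 0.215), and the groups overlapped. Within each library the log2 ratio of UBTF to POLR1B, a pair picked after the values were seen, was -0.56 and -0.29 in knockout libraries, against 0.39, 0.17 and 0.15 in wild type libraries. Library scaling cancels in this ratio, which was lower in both knockout libraries than in any wild type library. Of 12 other genes of the polymerase I machinery 1 was lower and 0 were higher by edgeR: CD3EAP, which encodes a polymerase I subunit, had 460 and 553 normalized counts in knockout libraries, against 749, 871 and 760 in wild type libraries (log2 fold change -0.65, SE 0.132, edgeR adjusted p = 0.00815). That call was lost without knockout library 2. Of the 12, 8.33% were lower in the main fit, against 14.8% of all tested genes. The number lower was 4, 1 and 1 without wild type replicates 1, 2 and 3. Over all tested genes, 21.5%, 13.4% and 7.74% were lower in these fits. Without knockout libraries 2 and 3, the median log2 fold change of the 12 was -0.089 and -0.20. With a block by the numbers in the column names, 3 were lower. That block also gives wild type replicate 1 no weight in the genotype effect.

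MYC had the most positive fold change and the largest standard error of the 48, and it did not pass the test. It had 9423 and 7245 normalized counts in the knockout libraries, against 8068, 4114 and 4937 in the wild type libraries (log2 fold change 0.55, SE 0.265, edgeR adjusted p = 0.154). Wild type replicate 1 lay between the knockout values, so the groups overlapped. Without that replicate MYC was called higher, with a log2 fold change of 0.87 (edgeR adjusted p = 0.00313). With another library left out its log2 fold change lay between 0.34 and 0.72, without a call. Of 10 analysed genes of the MYC network, 0 were lower and 1 was higher by edgeR: MXD4, a MAX-binding antagonist of MYC, had 564 and 537 normalized counts in knockout libraries, against 440, 433 and 355 in wild type libraries (log2 fold change 0.43, SE 0.133, edgeR adjusted p = 0.0411). The MXD4 call was lost without wild type replicate 3 or either knockout library. The median log2 fold change of the 10 was 0.27, and over all tested genes 14.8% were lower and 14.9% higher. The number of the 10 called higher came to 3, 2 and 0 without wild type replicates 1, 2 and 3, and to 4 with a replicate block. Over all tested genes 21.8%, 13.6% and 7.94% were higher without these replicates. Without knockout libraries 2 and 3, the median log2 fold change of the 10 was 0.16 and 0.35. Like the fit without wild type replicate 1, the block gives that replicate no weight in the genotype effect.

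**Figure D2:**
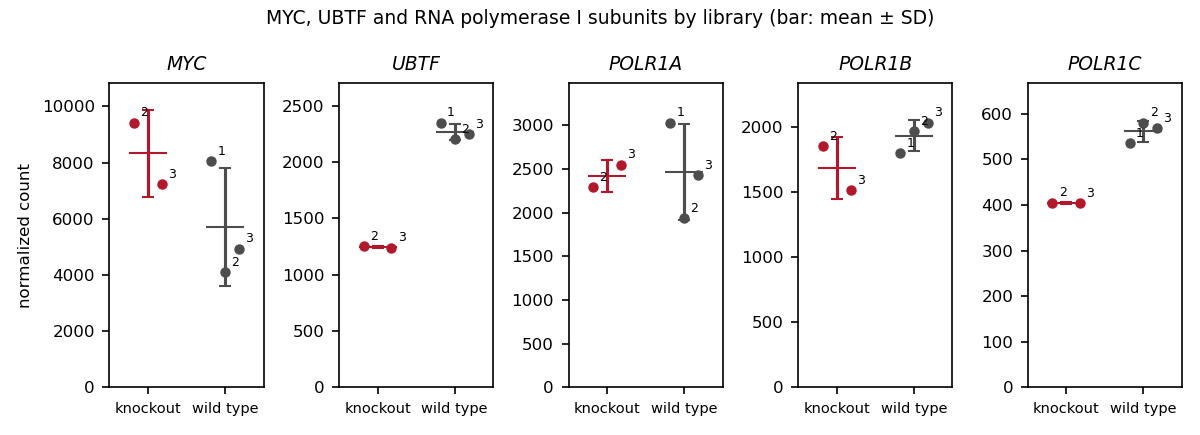
Normalized counts (y axes, from 0) of MYC, UBTF, POLR1A, POLR1B and POLR1C in each library, knockout left and wild type right, with the library number beside each point and lines for mean ± SD (n = 2 and n = 3). UBTF and POLR1C separate by genotype, whereas wild type replicate 1 of MYC (8068) lies between the knockout libraries (9423 and 7245).

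The abundant nucleolar proteins NPM1 and NCL fell in the knockout, and DDX21 and MYBBP1A were not called. NPM1 encodes nucleophosmin, a nucleolar chaperone, and had 12866 and 13203 normalized counts in the knockout libraries, against 18150, 19755 and 18906 in the wild type libraries (log2 fold change -0.54, SE 0.0889, edgeR adjusted p = 0.00326). NCL encodes nucleolin, an RNA-binding protein, and had 13708 and 13928 normalized counts in knockout libraries, against 23181, 18936 and 20511 in wild type libraries (log2 fold change -0.60, SE 0.108, edgeR adjusted p = 0.00495). For both, the knockout libraries lay close together below all wild type libraries. NPM1 lost its call without knockout library 2 and NCL without either knockout library. GENCODE release 29 lists 45 NPM1 pseudogenes, so reads shared with near-identical copies make the NPM1 counts uncertain. The RNA helicase gene DDX21 had 8519 and 9406 normalized counts in knockout libraries, against 9168, 9962 and 10050 in wild type libraries (log2 fold change -0.12, SE 0.0942, edgeR adjusted p = 0.368). MYBBP1A, a nucleolar MYB-binding protein, had 1992 and 2243 normalized counts in knockout libraries, against 2173, 2034 and 1951 in wild type libraries (log2 fold change 0.045, SE 0.100, edgeR adjusted p = 0.760). Both overlapped between the groups.

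Of the 8 snoRNP genes, 4 fell (50%, beside 14.8% of all tested genes), and the median log2 fold change was -0.31. Both knockout libraries lay below all wild type libraries in 7 of the 8, against 29.2% of all tested genes. Of the 8, 1 without knockout library 2, 2 without knockout library 3, and 6, 3 and 2 without wild type replicates 1, 2 and 3 were lower. NOP56 and NOP58 form the core of box C/D snoRNPs with the methyltransferase fibrillarin, encoded by FBL. NOP56 had 3023 and 3265 normalized counts in the knockout libraries, against 4666, 4768 and 4775 in the wild type libraries (log2 fold change -0.59, SE 0.0891, edgeR adjusted p = 0.00220). NOP58 had 2225 and 2646 normalized counts in knockout libraries, against 3486, 3469 and 3409 in wild type libraries (log2 fold change -0.50, SE 0.103, edgeR adjusted p = 0.00827). FBL had 1684 and 1622 normalized counts in knockout libraries, against 1816, 2127 and 2022 in wild type libraries and was not called (log2 fold change -0.27, SE 0.102, edgeR adjusted p = 0.0796). None of the 3 overlapped between the groups, and the gap was widest for NOP56. The log2 ratio of NOP56 to FBL, again picked after the values were seen, was 0.84 and 1.01 in knockout libraries, against 1.36, 1.16 and 1.24 in wild type libraries. The NOP58 call was lost without knockout library 2.

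The proteins of box H/ACA snoRNPs, the particles that carry out pseudouridylation, included 1 called gene. NOP10 had 911 and 930 normalized counts in the knockout libraries, against 1059, 1320 and 1219 in the wild type libraries (log2 fold change -0.38, SE 0.118, edgeR adjusted p = 0.0408). Its call was kept when wild type replicate 1 was left out and lost with any other library left out, and with each library's trend over gene length removed its log2 fold change was -0.10 (edgeR adjusted p = 0.429). The pseudouridine synthase gene DKC1 had 3117 and 3602 normalized counts in knockout libraries, against 3927, 4112 and 4041 in wild type libraries (log2 fold change -0.26, SE 0.0975, edgeR adjusted p = 0.0750), without overlap and without a call. NHP2 (log2 fold change -0.16, SE 0.0950) and GAR1 (log2 fold change -0.0039, SE 0.157), the remaining core proteins, were not called, and GAR1 overlapped between the groups. NOLC1, a snoRNP chaperone, had 3541 and 3909 normalized counts in knockout libraries, against 5020, 4656 and 4697 in wild type libraries (log2 fold change -0.36, SE 0.0940, edgeR adjusted p = 0.0212). The groups were apart, and significance was lost without wild type replicate 3 or either knockout library.

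Of 10 other genes of snoRNP assembly, 3 were lower and 0 higher by edgeR, and 1 without knockout library 2, 1 without knockout library 3, and 5, 3 and 2 without wild type replicates 1, 2 and 3 were lower. The 3 lower are 30% of the list, against 14.8% of all tested genes. Both knockout libraries lay above all wild type libraries in 4 of the 10 and below them in 4. Over all tested genes 30.1% lay above and 29.2% below. Log2 fold changes in the list reached 0.68. The number called higher came to 0 and 0 without knockout libraries 2 and 3, and 2, 1 and 0 without wild type replicates 1, 2 and 3. PIH1D1, a component of a chaperone complex that assembles snoRNPs, had 432 and 459 normalized counts in knockout libraries, against 695, 805 and 736 in wild type libraries (log2 fold change -0.74, SE 0.119, edgeR adjusted p = 0.00282). RUVBL1, an ATPase that acts with that complex, had 2386 and 2315 normalized counts in knockout libraries, against 3069, 3797 and 3746 in wild type libraries (log2 fold change -0.59, SE 0.116, edgeR adjusted p = 0.00718). PIH1D1 was called with any 1 library left out, and RUVBL1 lost its call without either knockout library.

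In the small-subunit processome 1 of 11 members fell (9.09%, beside 14.8% of all tested genes), and the median log2 fold change was -0.13. Without wild type replicate 1 the number lower was 3 of 11, where 21.5% of all tested genes were lower. Without wild type replicate 2 or 3 it was 1 of 11. Without knockout libraries 2 and 3, the median log2 fold change of the 11 was -0.12 and -0.14. UTP20, a large protein of the particle, had 1511 and 1498 normalized counts in the knockout libraries, against 2501, 2113 and 2414 in the wild type libraries (log2 fold change -0.64, SE 0.105, edgeR adjusted p = 0.00325). Its knockout libraries nearly coincided and lay well below the wild type range. The other 10 members had log2 fold changes between -0.36 and 0.11 and edgeR adjusted p between 0.0849 and 0.946. WDR43, with the most counts among them, had 3656 and 4453 normalized counts in knockout libraries, against 4046, 4276 and 4235 in wild type libraries (log2 fold change -0.046, SE 0.106). HEATR1, another large protein of the particle, had 3987 and 4233 normalized counts in knockout libraries, against 3911, 3499 and 4031 in wild type libraries (log2 fold change 0.11, SE 0.0979). Both overlapped between the groups. RRP9, a protein of the U3 snoRNP, had 693 and 695 normalized counts in knockout libraries, against 746, 1006 and 917 in wild type libraries (log2 fold change -0.36, SE 0.140, edgeR adjusted p = 0.0849). RRP9 did not overlap between the groups and was not called. UTP15, UTP18, NOL11, WDR75, NOP14, NOL6 and the helicase gene DDX10 make up the rest of the group.

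Of the 6 late 40S factors, which finish the small subunit, 0 were called by edgeR, where 29.7% of all tested genes were. None had an unadjusted p under 0.05, and DESeq2 called 0. Their median log2 fold change was -0.092, with a range of -0.16 to 0.036. TSR1, with the most counts, had 2852 and 2965 normalized counts in knockout libraries, against 3065, 3007 and 3048 in wild type libraries (log2 fold change -0.064, SE 0.0861). NOB1, the nuclease that makes the final cut at the end of the small-subunit rRNA, had 655 and 689 normalized counts in knockout libraries, against 799, 755 and 705 in wild type libraries (log2 fold change -0.16, SE 0.109). In both genes the knockout libraries lay below the wild type libraries by little. LTV1 had 701 and 999 normalized counts in knockout libraries, against 915, 927 and 919 in wild type libraries (log2 fold change -0.11, SE 0.149), so the knockout libraries stood on either side of wild type. PNO1, BYSL and RRP12 had log2 fold changes of 0.036, -0.084 and -0.10.

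Of 46 other small-subunit genes, 4 were lower and 2 higher by edgeR (median log2 fold change -0.087), and 0 without knockout library 2, 2 without knockout library 3, and 9, 5 and 1 without wild type replicates 1, 2 and 3 were lower. Of these 46, 8.7% were lower, against 14.8% of all tested genes, and the 2 higher stand beside 14.9% of all tested genes. IMP3, a U3 snoRNP protein (log2 fold change -0.56, SE 0.105), and WDR46 (log2 fold change -0.40, SE 0.0993) were lower, while the kinase gene RIOK3 (log2 fold change 0.72, SE 0.0954) and RCL1 (log2 fold change 0.46, SE 0.126) were higher. RIOK3 was called with any 1 library left out. IMP3 lost its call without knockout library 2, WDR46 without wild type replicate 3 or either knockout library, and RCL1 without wild type replicate 3 or knockout library 3.

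Of the 14 genes of 60S assembly, 6 fell (42.9%, beside 14.8% of all tested genes), and the median log2 fold change was -0.33. Both knockout libraries lay below all wild type libraries in 11 of the 14, against 29.2% of all tested genes. Of these genes, 2 without knockout library 2, 3 without knockout library 3, and 9, 5 and 4 without wild type replicates 1, 2 and 3 were lower. PES1 (ENSG00000100029) had 1199 and 1342 normalized counts in the knockout libraries, against 2012, 2228 and 2185 in the wild type libraries (log2 fold change -0.75, SE 0.102, edgeR adjusted p = 0.00138). It forms the PeBoW complex, needed for processing of the large-subunit rRNA, with BOP1 and WDR12. BOP1 had 215 and 222 normalized counts in knockout libraries, against 268, 321 and 287 in wild type libraries (log2 fold change -0.42, SE 0.140, edgeR adjusted p = 0.0525). WDR12 had 1559 and 1422 normalized counts in knockout libraries, against 1650, 1878 and 1814 in wild type libraries (log2 fold change -0.26, SE 0.101, edgeR adjusted p = 0.0867). In all 3 genes the groups were apart, but of these PES1 alone was called, and BOP1 lay just outside the threshold. With the trend over gene length removed, BOP1 (log2 fold change -0.41, edgeR adjusted p = 0.0440) and WDR12 (log2 fold change -0.45, edgeR adjusted p = 0.0297) were called lower too. The log2 ratio of PES1 to WDR12, picked after the values were seen, was -0.38 and -0.084 in knockout libraries, against 0.29, 0.25 and 0.27 in wild type libraries.

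GNL2 and GNL3 encode nucleolar GTPases, the GNL3 product being nucleostemin. GNL2 had 1798 and 1596 normalized counts in the knockout libraries, against 2396, 2728 and 2473 in the wild type libraries (log2 fold change -0.58, SE 0.106, edgeR adjusted p = 0.00519). GNL3 had 2804 and 3169 normalized counts in knockout libraries, against 3519, 4349 and 3963 in wild type libraries (log2 fold change -0.40, SE 0.116, edgeR adjusted p = 0.0322). In both genes no knockout library reached the lowest wild type library. NOP16, a nucleolar protein, had 602 and 621 normalized counts in knockout libraries, against 879, 931 and 931 in wild type libraries (log2 fold change -0.58, SE 0.103, edgeR adjusted p = 0.00467). EBNA1BP2, an early large-subunit factor, had 1057 and 1146 normalized counts in knockout libraries, against 1443, 1695 and 1695 in wild type libraries (log2 fold change -0.55, SE 0.110, edgeR adjusted p = 0.00783). Again the groups were apart. The helicase gene DDX18 had 3150 and 3670 normalized counts in knockout libraries, against 3992, 4407 and 4360 in wild type libraries (log2 fold change -0.32, SE 0.104, edgeR adjusted p = 0.0488), just inside the threshold. DDX18 kept its call without wild type replicate 1, lost it with any other library left out, and lost it without TMM normalization. GNL3 lost its call without wild type replicate 3 or either knockout library, EBNA1BP2 and NOP16 without knockout library 2, and GNL2 without knockout library 3.

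The 8 uncalled genes of 60S assembly had log2 fold changes between -0.42 and 0.035. RRP1B, with the most counts among them, had 3315 and 3488 normalized counts in knockout libraries, against 3691, 3331 and 3419 in wild type libraries, and the groups overlapped. BRIX1 had 1255 and 1211 normalized counts in knockout libraries, against 1330, 1648 and 1544 in wild type libraries (log2 fold change -0.29, SE 0.114, edgeR adjusted p = 0.0858), without overlap. RRS1 had 290 and 335 normalized counts in knockout libraries, against 458, 374 and 353 in wild type libraries (log2 fold change -0.33, SE 0.155, edgeR adjusted p = 0.134), also without overlap. SDAD1 had 1032 and 1458 normalized counts in knockout libraries, against 1199, 1161 and 1287 in wild type libraries, with the knockout libraries on either side of wild type. The rRNA methyltransferase gene NOP2 and the assembly factor gene NIP7 had log2 fold changes of -0.16 and -0.16. Of 49 other large-subunit genes, 6 were lower and 2 higher by edgeR (median log2 fold change -0.14), and 1 without knockout library 2, 2 without knockout library 3, and 17, 3 and 2 without wild type replicates 1, 2 and 3 were lower. Of these 49, 12.2% were lower, against 14.8% of all tested genes, and the 2 higher stand beside 14.9% of all tested genes. FTSJ3, an rRNA methyltransferase (log2 fold change -0.56, SE 0.108), and MRTO4, a factor of ribosomal stalk assembly (log2 fold change -0.54, SE 0.0974), were lower, and URB1 (log2 fold change 0.49, SE 0.0945) and RRP8 (log2 fold change 0.44, SE 0.114) were higher. FTSJ3 lost its call without knockout library 3, MRTO4 without knockout library 2, URB1 without either knockout library, and RRP8 without these or wild type replicate 3.

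**Figure D3:**
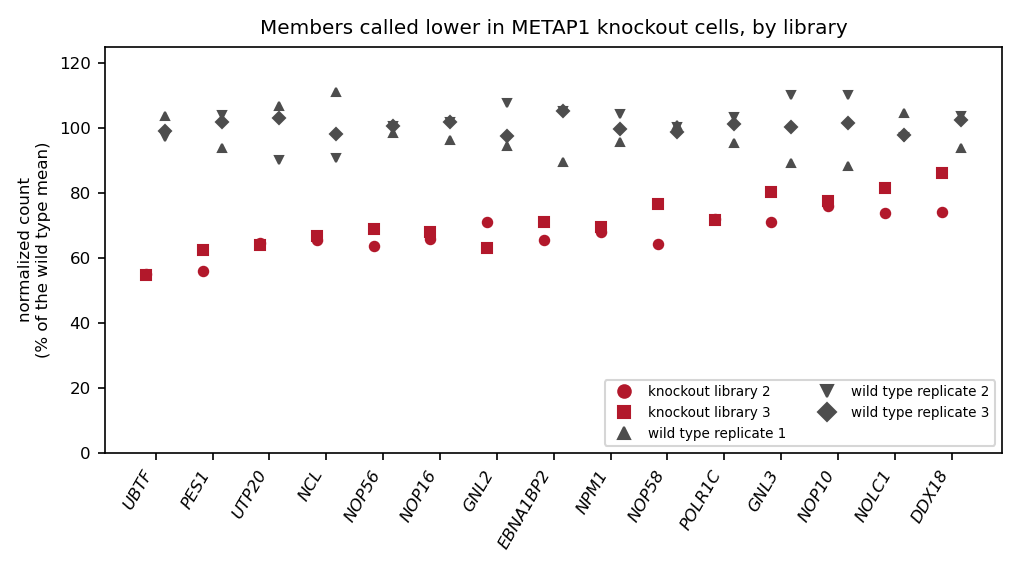
Normalized count of the 15 lower members in each library as a percent of that gene's wild type mean (y axis, from 0), knockout libraries in red on the left and wild type libraries in grey on the right of each gene. In all 15 both knockout libraries lie below all 3 wild type libraries. The 15 were called on these same libraries, so this separation is not separate support.

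Ribosome biogenesis genes outside the set included genes called in both directions, and most of their fold changes, called or not, were negative. Over 5 lists with 132 tested genes, 21 were lower (15.9%, beside the 14.8% of all tested genes) and 4 higher by edgeR, with a median log2 fold change of -0.13. In either direction 25 of the 132 were called, where 29.7% of all tested genes were. A negative fold change was found for 95 of the 132, against 49.4% of all tested genes. Both knockout libraries lay below all wild type libraries in 55 of the 132 and above them in 17 of the 132, against 29.2% below and 30.1% above over all tested genes. No test of a difference from other genes was made. The number lower was 4 without knockout library 2, 8 without knockout library 3, 9 without wild type replicate 3, 17 without replicate 2 and 43 without replicate 1, where 21.5% of all genes were lower. Of 15 genes of the exosome and related trimming enzymes, which shorten rRNA precursors, 7 were lower (46.7%) and 0 higher. EXOSC9, an exosome core subunit, had 975 and 1047 normalized counts in knockout libraries, against 1461, 1492 and 1542 in wild type libraries (log2 fold change -0.57, SE 0.0947, edgeR adjusted p = 0.00340). The nuclease gene EXOSC10 had 1525 and 1470 normalized counts in knockout libraries, against 2069, 2210 and 2188 in wild type libraries (log2 fold change -0.53, SE 0.0911, edgeR adjusted p = 0.00400). Both lay below wild type in both knockout libraries. EXOSC9 was called with any 1 library left out, and EXOSC10 was not without knockout library 3. Of the 15, 2 without knockout library 2, 2 without knockout library 3, and 8, 5 and 3 without wild type replicates 1, 2 and 3 were lower.

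Cytosolic ribosomal protein genes, whose products these factors assemble, had 16 of 78 lower (20.5%, beside 14.8% of all tested genes) and 0 higher by edgeR. Their median log2 fold change was -0.17. With each library's trend over gene length removed, 12 were lower and 1 higher, and the median was -0.068. Their summed normalized counts were 660112 and 637504 in the knockout libraries, against 653892, 796004 and 752352 in the wild type libraries, so wild type replicate 1 lay between the knockout libraries. RPL29 had 3781 and 3687 normalized counts in knockout libraries, against 5168, 5662 and 5453 in wild type libraries (log2 fold change -0.54, SE 0.0900, edgeR adjusted p = 0.00339). RPL10A had 6118 and 6295 normalized counts in knockout libraries, against 8440, 10502 and 9547 in wild type libraries (log2 fold change -0.61, SE 0.110, edgeR adjusted p = 0.00482). RPL29 was called with any 1 library left out, and RPL10A lost its call without either knockout library. Leaving out wild type replicate 2 gave 11 lower, leaving out knockout library 2 gave 1, and leaving out wild type replicate 1 gave 50. Leaving out knockout library 3 gave 2, and wild type replicate 3 gave 5. Ribosomal protein genes have many near-identical pseudogenes, which makes their counts uncertain.

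**Figure D4:**
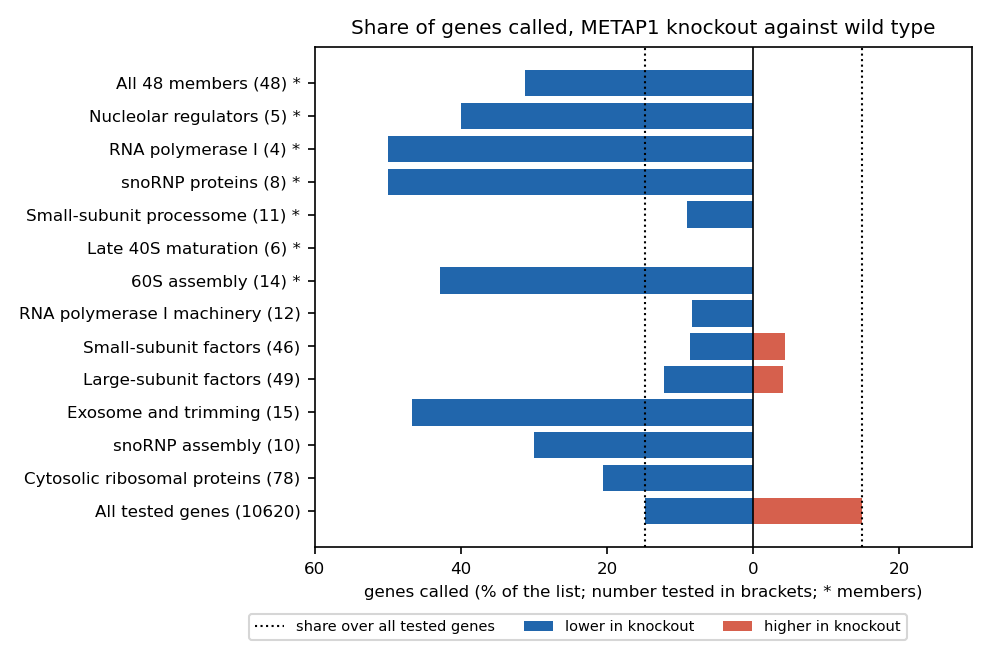
Percent of genes called lower (blue, left of 0) and higher (red, right of 0) in METAP1 knockout against wild type cells, for the members and their role groups (asterisks), other ribosome biogenesis lists and ribosomal protein genes, with the number tested in brackets. Dotted lines mark the shares over all tested genes (14.8% lower and 14.9% higher); the members reach 31.2% lower and 0 higher.

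The knockout libraries differed between themselves. Knockout library 3 had the higher value in 35 members and knockout library 2 in 13. The median log2 ratio of library 3 to library 2 was 0.072 over the members and -0.0038 over all tested genes. This ratio was 0.51 for LTV1 and 0.50 for SDAD1 at one end, and -0.38 for MYC at the other. The members' median log2 level relative to the wild type mean was -0.24 and -0.19 in knockout libraries, against -0.044, 0.027 and 0.012 in wild type libraries. Wild type replicate 1 was the lowest wild type library in 27 members and the highest in 16.

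The E-box core CACGTG was common in the members' promoters and as common in uncalled as in lower members. Of 40 members with a RefSeq promoter entry, 17 held it (42.5%), against 10.4% of 8758 promoters of genes in the table and 7.43% of all 27305 windows of the same length. It was in 5 of 12 lower members (41.7%) and in 12 of 28 uncalled members (42.9%). The median log2 fold change was -0.16 in the 17 members with it and -0.20 in the 23 without. In PES1 and NOL6, printed above, it begins at the same place, 13 bases after the start site, with log2 fold changes of -0.75 for PES1 and 0.085 for NOL6. A match is a description of these letters only. NOLC1, NOP58, RRS1, MYC, DDX18, RRP1B, BOP1 and RRP12 were not analysed for the motif.

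Some members contain snoRNA genes. In GENCODE release 29 (GRCh38), 9 of 47 members with a position hold them. They are the lower NCL, POLR1C, NOP56, NOP58 and GNL3 and the uncalled DKC1, NOL11, WDR43 and TSR1. Their log2 fold changes ran from -0.60 to -0.046. Of these 9, 5 were lower (55.6%), with a median log2 fold change of -0.40. Of the other 38, 10 were lower (26.3%), with a median of -0.16. Over all tested genes 14.8% were lower, with a median of 0.0062. The split was made after the values were seen and is a description. Of the 9, 1 without knockout library 2, 2 without knockout library 3, and 7, 5 and 3 without wild type replicates 1, 2 and 3 were lower. Of the 38, 4 without knockout library 2, 6 without knockout library 3, and 14, 8 and 7 without wild type replicates 1, 2 and 3 were lower. Over all tested genes, 21.5%, 13.4% and 7.74% were lower without wild type replicates 1, 2 and 3. A gene on the opposite strand overlaps 23 of the 47, including 7 lower members. These 7 are UBTF, PES1, POLR1C, EBNA1BP2, GNL2, GNL3 and NOP16. The library kit keeps strand, but which setting was used in counting is unknown here, so reads of such overlapping genes may be mixed.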

How the data were processed

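RNA sequencing of METAP1 knockout (2 libraries) and wild type (3 libraries) HAP1 cells was analysed. The authors deposited raw read counts per gene; the submitters' processing notes name STAR 2.4.0i, HTSeq and DESeq2 with GRCh37 and hg19, without roles. Per the file headers, the same table gives the authors' log2 fold changes, p-values and adjusted p-values, and a gene length. Its 5 per-sample RPKM columns were not used. Knockout columns carry the numbers 2 and 3 and the sample titles 1 and 2, so columns were assigned to the knockout group but not to single titles.

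Counts were fitted in R 4.3.3 with edgeR 4.0.16 (filterByExpr, which removed 6 genes; TMM; robust quasi-likelihood F-test, no covariate), with Benjamini-Hochberg adjustment over 10620 genes; called means an adjusted p under 0.05. Alternatives used DESeq2 1.42.0, limma 3.58.1 voom, other scalings and filters, a lowess correction for gene length (span 0.3), a replicate block and each library left out. The fitting code was checked on simulated counts, in which 67, 67 and 66 genes were changed by a log2 of 0.5, 1 and 2. It recovered 35.8%, 94.0% and 98.5% of them, so an uncalled gene may still differ. The simulation changed far fewer genes than were called in the data. Replicates differed beyond sampling noise (chi-square per degree of freedom 10.1 to 34.9).

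Members and lists were chosen with earlier results of these data known, so no list was tested. Values per library are given for called members, METAP1, MYC, RNA polymerase I genes and the uncalled member with the most counts in each role group; further uncalled members were picked after their values were seen. From other lists, at most 2 called genes per direction with the smallest adjusted p are named. Protein sequences and snoRNA host RNAs were not analysed here, so a planned listing of second residues was not made.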

Additional observations from a re-analysis of the deposited data

How the results depend on the processing

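The number of lower members was 14 with no TMM factor, 16 with the length trend removed (BOP1 and WDR12 gained, NOP10 lost) and 15 under each other scaling, filter or test. With 1 library left out, the number lower was 5 to 22, the number higher 0 to 1, the median log2 fold change -0.24 to -0.19, and the number of other ribosome biogenesis genes called 6 to 52. Equal column numbers did not pair the libraries (correlation of deviations 0.032 for number 2 and -0.0022 for number 3). With a replicate block by these numbers, 20 members were lower, 1 (MYC) was higher, the median was -0.23 and 45 other ribosome biogenesis genes were called. Number 1 belongs to wild type replicate 1 alone, so that replicate did not inform the genotype effect in this fit. The blocked fit is therefore not independent of the fit without that replicate. Of 624 values of single members, 555 kept direction and side of the threshold, 26 lost and 16 gained a call, and 27 changed sign, none of a called member. Changed signs with the length trend removed were -0.015 for MYBBP1A, 0.10 for GAR1, -0.063 for HEATR1, 0.044 for WDR43, 0.027 for BYSL and 0.0037 for LTV1; with no TMM factor 0.013 for GAR1 and 0.0046 for WDR75; with the replicate block 0.16 for POLR1A, 0.056 for GAR1 and 0.011 for RRP1B. Members whose sign changed with a library left out had these ranges of log2 fold change: MYBBP1A -0.043 to 0.13, POLR1A -0.17 to 0.14, GAR1 -0.20 to 0.17, NOL6 -0.023 to 0.18, WDR43 -0.20 to 0.089, WDR75 -0.11 to 0.032, PNO1 -0.050 to 0.12, LTV1 -0.39 to 0.12, NIP7 -0.36 to 0.017, SDAD1 -0.24 to 0.26 and RRP1B -0.070 to 0.0034. The cause of these changes was not tested. The smallest read count of a member in a library was 193, and the 2 and 3 libraries per group limit the precision.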
